A study of Mus musculus with 6 samples.

Results

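The transcripts described here are those of 7 major urinary protein genes, Mup3, Mup7, Mup11, Mup12, Mup14, Mup15 and Mup17, read in RNA of mouse Kupffer cells, macrophages that live in the liver. They were picked by gene name from a count table of 54532 genes because their levels differed between the genotypes compared, so their own differences are given as a description, with no test. The table holds 48 genes named Mup, of which 21 are protein coding and 27 are pseudogenes. Kupffer cells were sorted from the livers of male mice. The 3 Trem2_KO libraries came from Trem2-deficient (Trem2-/-) mice, and the 3 WT libraries came from wild-type littermates. TREM2 is a receptor on macrophages that senses lipids. Mice of both genotypes were 8 weeks old when a high fat diet began and were fed it for 8 weeks. The labels do not say how the allele was made, by which markers the cells were sorted, or whether libraries stand for separate mice. P-values therefore cover the spread among these libraries, and this may be technical.

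Major urinary proteins are small secreted lipocalins, barrel-shaped carriers of hydrophobic ligands. In mice they are made chiefly by hepatocytes, released into the blood, filtered by the kidney and excreted in urine, where they bind volatile pheromones and act as scent signals themselves. Their genes lie in a cluster of near-identical copies, and liver expression is higher in adult males than in females because it depends on pulsatile growth hormone acting through STAT5B, with androgen, thyroid hormone and glucocorticoid also known to act on it. Macrophages are not known as their source.

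The members' sequences bear on every value that follows, because 6 of the 7 are almost the same. Each of the 7 has a transcript of 7 exons, 6 of them coding. Over the coding sequence (540 to 552 bases in the usual transcripts, from GENCODE M21, which gives all 48 Mup genes the same start and end as the count table), the 15 pairs formed by Mup7, Mup11, Mup12, Mup14, Mup15 and Mup17 were 98.3% to 99.4% identical and differed at 3 to 9 bases. Mup3 was 83.3% to 84.6% identical to them and differed at 85 to 92 bases. Mup20, a gene of the same cluster that is no member and encodes the male pheromone darcin, was 87.3% to 91.3% identical to the 7. The following 90 bases of coding strand, from GRCm38 chromosome 4, are the stretch in which the 6 near-identical members differ most. They begin at coding base 131 in Mup7, Mup12, Mup14, Mup15 and Mup17, at base 134 in Mup11 and Mup20 and at base 143 in Mup3, counted from the start codon. Capitals mark bases unlike Mup7.
Mup7 coding stretch: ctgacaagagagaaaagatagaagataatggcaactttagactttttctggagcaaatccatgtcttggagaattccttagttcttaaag
Mup11 coding stretch: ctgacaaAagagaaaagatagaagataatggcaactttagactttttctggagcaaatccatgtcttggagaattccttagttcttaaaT
Mup12 coding stretch: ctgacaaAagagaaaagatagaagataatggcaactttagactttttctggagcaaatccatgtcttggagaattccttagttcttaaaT
Mup14 coding stretch: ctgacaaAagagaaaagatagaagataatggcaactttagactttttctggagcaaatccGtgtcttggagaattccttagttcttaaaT
Mup15 coding stretch: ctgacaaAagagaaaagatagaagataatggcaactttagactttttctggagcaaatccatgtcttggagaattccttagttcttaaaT
Mup17 coding stretch: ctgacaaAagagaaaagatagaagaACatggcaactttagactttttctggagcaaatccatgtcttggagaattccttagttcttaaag
Mup3 coding stretch: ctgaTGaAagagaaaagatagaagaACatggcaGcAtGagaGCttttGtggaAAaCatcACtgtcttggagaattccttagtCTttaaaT
Mup20 coding stretch: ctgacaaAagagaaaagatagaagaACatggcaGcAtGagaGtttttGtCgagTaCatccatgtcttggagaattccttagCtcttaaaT
Mup11, Mup12 and Mup15 cannot be told apart in this stretch, and each has 2 bases unlike Mup7. Mup14 and Mup17 have 3 bases unlike Mup7, Mup20 has 13 and Mup3 has 19.

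The promoters repeat that split. The RefSeq table of promoters (GRCm38.p6, 250 bases before and 50 bases after each gene's start) holds 6 of the 7 members, all on the minus strand. Mup3, Mup15 and Mup17 are shown because Mup3 had the smallest and Mup15 the largest ratio between genotypes, while Mup15 and Mup17 match at every aligned base. They span chr4:62087268-62087567 (Mup3), chr4:61439655-61439954 (Mup15) and chr4:61595783-61596082 (Mup17). Capitals mark matches to TATANAA, the TATA box, and to AGAACA, the core of the element bound by androgen and glucocorticoid receptors, read on either strand.
Mup3 promoter: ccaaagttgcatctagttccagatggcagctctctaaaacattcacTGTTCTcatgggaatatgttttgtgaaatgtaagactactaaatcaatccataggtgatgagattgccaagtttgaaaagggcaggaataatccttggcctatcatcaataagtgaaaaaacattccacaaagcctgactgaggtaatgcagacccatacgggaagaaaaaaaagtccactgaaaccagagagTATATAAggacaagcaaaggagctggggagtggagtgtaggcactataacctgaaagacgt
Mup15 promoter: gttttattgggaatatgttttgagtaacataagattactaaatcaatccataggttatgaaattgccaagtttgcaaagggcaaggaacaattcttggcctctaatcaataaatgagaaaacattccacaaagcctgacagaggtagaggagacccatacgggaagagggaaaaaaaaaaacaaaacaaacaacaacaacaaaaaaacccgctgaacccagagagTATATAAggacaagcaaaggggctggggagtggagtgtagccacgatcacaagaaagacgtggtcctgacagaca
Mup17 promoter: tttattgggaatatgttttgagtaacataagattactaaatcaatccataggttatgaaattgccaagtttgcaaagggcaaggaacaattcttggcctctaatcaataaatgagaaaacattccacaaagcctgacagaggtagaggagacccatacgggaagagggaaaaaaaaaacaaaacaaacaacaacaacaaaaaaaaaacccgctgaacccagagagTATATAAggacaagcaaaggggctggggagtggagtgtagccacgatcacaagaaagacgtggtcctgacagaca
Mup15 and Mup17 matched at 297 of 297 aligned bases, gaps left out. Other pairs that leave out Mup3 were at least 96.5% identical over 171 to 277 aligned bases, whereas Mup3 was 84.5% to 88.0% identical to the others over 219 to 274. AGAACA was found in the Mup3 window and in none of the other 5, and in 19.0% of all 27025 promoter windows of this length. TATANAA was found in 5 of the 6 members, all but Mup7, and in 11.8% of all windows. The match began from 25 bases before the annotated start (Mup15 and Mup17) to 12 bases after it (Mup14). The Mup7 window ends upstream of the place of this match in the near-identical copies. Its absence there therefore depends on the annotated start and does not show that Mup7 lacks a TATA box. TTCNNNGAA, the element bound by STAT5, was found in none of the 6 and in 8.47% of all windows. No 2 of these motifs overlapped in the windows shown.

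The labels were checked first. Trem2 (ENSMUSG00000023992, chr17:48346401-48354147, GRCm38) was read at 16.6, 17.4 and 14.5 CPM, the read count scaled to library size by TMM, in Trem2_KO libraries, against 84.8, 90.1 and 84.3 CPM in WT libraries. The edgeR quasi-likelihood test gave a log2 change of -2.42 with an SE of 0.0641 and a Benjamini-Hochberg adjusted p = 1.68e-35 (n = 3 each). Total counts were 16347967 to 17135603 in Trem2_KO libraries and 15799351 to 15893041 in WT libraries, so that a count of 3, the limit that a count of 0 allows, stood for 0.173 to 0.192 CPM. Kupffer cell markers were abundant, with 12 of 12 detected and a sum of 48834 to 50093 CPM in Trem2_KO libraries and 54318 to 56175 CPM in WT libraries. All 6 libraries matched the labelled sex by genes chosen after the data were seen, since Xist had 0 to 3 reads and the Y-linked gene Ddx3y was at 113 to 122 CPM in Trem2_KO libraries and 114 to 123 CPM in WT libraries. Of 13776 genes that passed the filter on low counts, 4182 (30.4%) were called at an adjusted p under 0.05, 2103 higher and 2079 lower in Trem2_KO. Of the 12 Kupffer cell markers 9 were called lower, with a median log2 change of -0.15, beside 15.1% lower over all tested genes, and their part in the results was not tested. Scaling by total counts turned the calls into 2517 higher and 1588 lower, so 61.3% of calls were higher rather than 50.3%.

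All 7 Mup members were lower in Trem2_KO Kupffer cell RNA, by 2.56-fold for Mup3 and by 5.94-fold to 52.1-fold for the other 6. The 7 members passed the filter on low counts, 7 of 7 were among the genes called lower, and in 7 of 7 every Trem2_KO library lay below every WT library. Over all tested genes 15.1% were called lower and 20.7% had non-overlapping groups with Trem2_KO lower. The members were chosen from this contrast, so nothing is read from these counts. Mup15 reached the filter's level of 0.620 CPM in 0 Trem2_KO libraries and Mup14 in 1, so both passed through WT and had to differ. In sorted cells read in bulk, fewer cells of a type and less RNA per cell cannot be told apart.

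**Figure D1:**
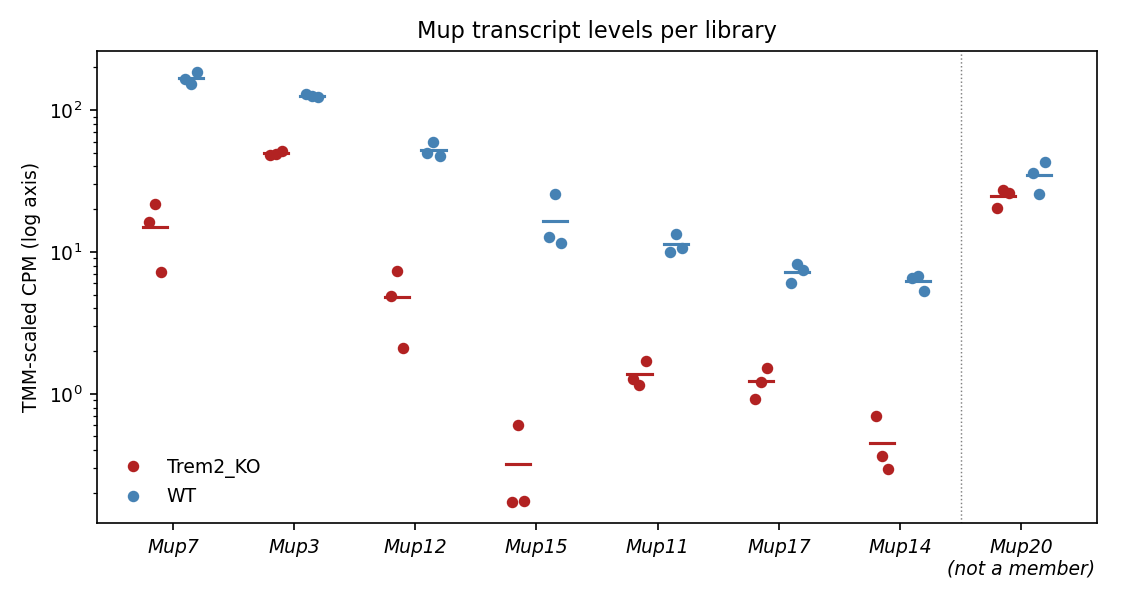
Levels of the 7 Mup members and of Mup20 in each library, in TMM-scaled CPM on a log axis, with Trem2_KO in red left of WT in blue, 1 point per library and a bar at the mean of 3. The points of the groups do not overlap for any of the 7 members, which were chosen from this contrast, while those of Mup20 do. Non-overlap with Trem2_KO lower was found in 20.7% of all tested genes.

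Mup3 (ENSMUSG00000066154, chr4:62083476-62087342, minus strand) is the member with the most distinct sequence and the most even values. It was read 837, 804 and 870 times in Trem2_KO libraries and 2035, 1965 and 1937 times in WT libraries. That gave 48.4, 48.8 and 51.2 CPM in Trem2_KO, against 130, 126 and 124 CPM in WT. The means were 49.5 ± 1.51 CPM in Trem2_KO and 126 ± 3.15 CPM in WT (SD, n = 3 each), a log2 ratio of -1.35. Its coefficient of variation was 3.06% in Trem2_KO and 2.49% in WT, close to the 3.46% and 2.25% that counting error alone would give.

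Mup7 (ENSMUSG00000073842, chr4:60066469-60070475) was the member with the highest count in WT. It had 282, 357 and 123 reads in Trem2_KO libraries and 2609, 2398 and 2890 reads in WT libraries. Its level averaged 15.1 ± 7.29 CPM in Trem2_KO and 168 ± 15.8 CPM in WT (SD, n = 3 each), a log2 ratio of -3.48 or an 11.2-fold lower level in Trem2_KO. The knockout libraries differed among themselves, at 16.3, 21.7 and 7.24 CPM, with a coefficient of variation of 48.4% where counting error alone would give 6.27%, yet the highest of them was far under the lowest WT library at 153 CPM.

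Mup12 (ENSMUSG00000094793, chr4:60737383-60741326) followed Mup7 library by library in Trem2_KO. It had 85, 121 and 36 reads in Trem2_KO libraries and 774, 928 and 739 reads in WT libraries. Its level averaged 4.79 ± 2.62 CPM in Trem2_KO and 52.0 ± 6.44 CPM in WT (SD, n = 3 each), a log2 ratio of -3.44. For both genes Trem2_KO replicate 3 was the lowest library and Trem2_KO replicate 2 the highest, and Mup12 varied by 54.6% there against 11.1% from counting alone.

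Mup15 (ENSMUSG00000096674, chr4:61435790-61439743) had the largest ratio of the 7 and the least even WT values. It was read 3, 10 and 3 times in Trem2_KO libraries and 200, 400 and 180 times in WT libraries. The means were 0.319 ± 0.249 CPM in Trem2_KO and 16.6 ± 7.78 CPM in WT (SD, n = 3 each), a log2 ratio of -5.70, or a 52.1-fold lower level in Trem2_KO. With only 16 knockout reads this ratio is imprecise, and without Trem2_KO replicate 2 the log2 ratio was -6.57. WT replicate 2 held more Mup15 reads than the other two WT libraries together.

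Mup16, no member, matches Mup15 at all but 4 bases of the coding sequence, and the WT libraries ordered differently for it. Mup16 is not the nearest copy, since Mup2 differs from Mup15 at 2 bases and Mup1, Mup12 and Mup19 at 3 each. Mup16 had 0, 84 and 2 reads in Trem2_KO libraries and 200, 61 and 127 reads in WT libraries, so WT replicate 2 was lowest for Mup16 and highest for Mup15. Mup15 and Mup16 summed, a sum chosen after their values were seen, gave 3, 94 and 5 reads in Trem2_KO libraries and 400, 461 and 307 reads in WT libraries. The summed level was 0.173, 5.71 and 0.294 CPM in Trem2_KO and 25.5, 29.5 and 19.6 CPM in WT, with no overlap between the groups. The sum was more even over the WT libraries than Mup15 alone, and in Trem2_KO it rested on replicate 2.

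Mup11, Mup17 and Mup14 were lower-count copies. Mup11 (ENSMUSG00000073834, chr4:60658466-60662411) had 22, 19 and 29 reads in Trem2_KO libraries and 156, 208 and 167 reads in WT libraries, a log2 ratio of mean CPM of -3.04. Mup17 (ENSMUSG00000096688, chr4:61591929-61595871) had 16, 20 and 26 reads in Trem2_KO libraries and 95, 129 and 117 reads in WT libraries, a log2 ratio of -2.57. Their knockout values were even, with coefficients of variation of 21.1% for Mup11 and 24.7% for Mup17 against 20.7% and 22.0% from counting alone. Trem2_KO replicate 3, the lowest library for Mup7 and Mup12, was the highest for these 2 genes. Mup14 (ENSMUSG00000073830, chr4:61300023-61304000) had 12, 6 and 5 reads in Trem2_KO libraries and 102, 106 and 83 reads in WT libraries, a log2 ratio of -3.78.

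Levels of different genes are compared per length, in the deposited FPKM. The order in Trem2_KO was Mup3 (46.0 ± 1.43 FPKM), Mup7 (14.5 ± 7.02), Mup12 (5.14 ± 2.81), Mup17 (1.31 ± 0.325), Mup11 (0.868 ± 0.184), Mup15 (0.343 ± 0.268) and Mup14 (0.324 ± 0.153), each a mean ± SD of FPKM with n = 3. In WT the order was Mup7 (162 ± 15.1 FPKM), Mup3 (118 ± 3.06), Mup12 (55.9 ± 6.94), Mup15 (17.9 ± 8.38), Mup17 (7.80 ± 1.18), Mup11 (7.14 ± 1.11) and Mup14 (4.46 ± 0.569). Mup3 was thus first in every Trem2_KO library, whereas Mup7 was first in every WT library. Among neighbours in the Trem2_KO order, the libraries of Mup7 and Mup12, of Mup17 and Mup11 and of Mup15 and Mup14 overlapped, and in the WT order those of Mup17 and Mup11 did.

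Because near-identical copies can exchange reads, the members were also summed. The 7 together had 1257, 1337 and 1092 reads in Trem2_KO libraries and 5971, 6134 and 6113 reads in WT libraries. Their summed level averaged 72.7 ± 8.45 CPM in Trem2_KO and 388 ± 5.91 CPM in WT (SD, n = 3 each), which is 5.34-fold lower in Trem2_KO and a log2 ratio of -2.42. The WT libraries differed little, at 381, 392 and 391 CPM, although single copies such as Mup15 did differ among them. Without Mup3, a sum chosen after the data were seen, the level was 24.3, 32.4 and 13.1 CPM in Trem2_KO, against 251, 267 and 267 CPM in WT, a log2 ratio of -3.49. Over all 48 genes named Mup the sum was 102 ± 12.8 CPM in Trem2_KO and 441 ± 9.07 CPM in WT, a log2 ratio of -2.11.

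The make-up of the remaining Mup reads differed between the genotypes. Mup3 held 66.6% (95% Wilson interval 63.9% to 69.1%), 60.1% (57.5% to 62.7%) and 79.7% (77.2% to 82.0%) of the members' reads in the Trem2_KO libraries. In the WT libraries Mup3 held 34.1% (32.9% to 35.3%), 32.0% (30.9% to 33.2%) and 31.7% (30.5% to 32.9%). The groups did not overlap, and Mup3 held more reads than the other 6 members together in every Trem2_KO library and in no WT library. Mup7 held 22.4% (20.2% to 24.8%), 26.7% (24.4% to 29.1%) and 11.3% (9.52% to 13.3%) in Trem2_KO libraries and 43.7% (42.4% to 45.0%), 39.1% (37.9% to 40.3%) and 47.3% (46.0% to 48.5%) in WT libraries. Mup12 held 3.30% to 9.05% in Trem2_KO and 12.1% to 15.1% in WT, and Mup15 held 0.239% to 0.748% in Trem2_KO and 2.94% to 6.52% in WT. Shares of Mup11 and Mup17 overlapped between the groups, at 1.42% to 2.66% in Trem2_KO and 2.61% to 3.39% in WT for Mup11, and at 1.27% to 2.38% in Trem2_KO and 1.59% to 2.10% in WT for Mup17. Mup14 held 0.449% to 0.955% in Trem2_KO and 1.36% to 1.73% in WT. The intervals cover counting error alone, because reads with no molecular identifiers may be copies of 1 molecule.

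**Figure D2:**
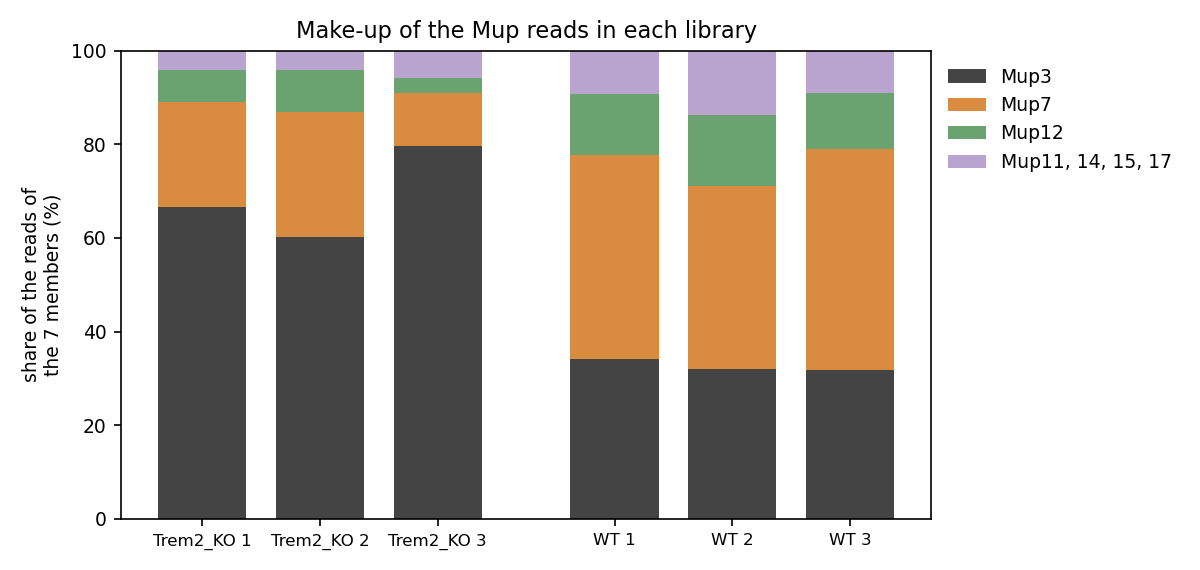
Share of each gene in the reads of the 7 Mup members, in percent, 1 bar per library, Trem2_KO left of WT, with Mup11, Mup14, Mup15 and Mup17 pooled. The dark segment, Mup3, covers 60.1% to 79.7% of the Trem2_KO bars and 31.7% to 34.1% of the WT bars.

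How far a read can be assigned to 1 copy differs between the members. Of all 100-base windows of a gene's annotated transcripts, 97.8% occurred in no other Mup gene for Mup3, against 40.6% for Mup17, 29.4% for Mup11, 24.3% for Mup14, 23.9% for Mup7, 22.5% for Mup12 and 2.66% for Mup15. With windows of 50 bases the share was 86.7% for Mup3 and 0 for Mup15, and with 150 bases every window of Mup3 was unique, against 9.28% for Mup15. The members with the smallest and the largest unique share, Mup15 and Mup3, also had the largest and the smallest ratio between genotypes, with the others between. Of the tested Mup genes that are no members, Mup20 with 61.2% had a 1.42-fold ratio and Mup21 with 95.5% a 2.98-fold ratio. Mup1 with 44.3% (20.4-fold), Mup-ps19 with 23.3% (2.78-fold) and Mup16 with 17.6% (4.75-fold) passed the filter on low counts through WT. Mup14 and Mup15 did too, so nothing is read from the ratios of these genes. The part of read assignment in the ratios of single copies was not tested, and counts of single copies other than Mup3 are uncertain for that reason. Mup3, which shares almost no window with another copy, is the member whose count depends least on assignment.

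**Figure D3:**
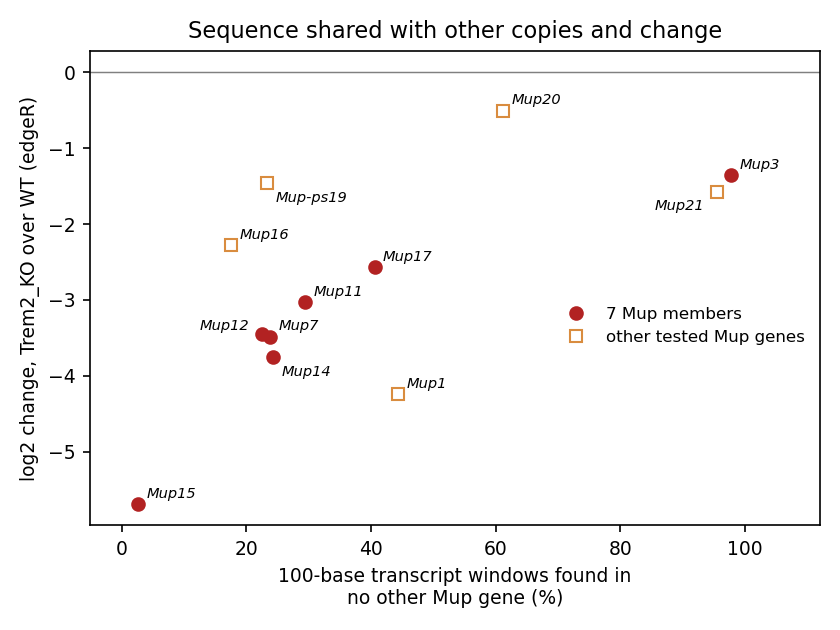
Share of 100-base transcript windows found in no other Mup gene (percent, x axis) and log2 change of Trem2_KO over WT fitted by edgeR (y axis) for the 7 members (filled) and the 5 other Mup genes that passed the filter on low counts (open). Mup3 lies at 97.8% with a log2 change of -1.35, Mup15 at 2.66% with -5.69.

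Of the Mup genes that are no members, Mup20 had the most reads and the smallest difference among those tested. Mup20 (darcin; ENSMUSG00000078672, chr4:62050234-62054158) had 351, 452 and 442 reads in Trem2_KO libraries and 563, 398 and 673 reads in WT libraries. It averaged 24.6 ± 3.78 CPM in Trem2_KO and 34.8 ± 8.84 CPM in WT (SD, n = 3 each), a log2 ratio of -0.50, and the groups overlapped. In FPKM it came after Mup3 in Trem2_KO, at 26.3 ± 4.06, and after Mup12 in WT, at 37.3 ± 9.46.

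Mup21, also distinct in sequence (95.5% of windows unique), had 18, 24 and 25 reads in Trem2_KO libraries and 69, 66 and 50 reads in WT libraries, a log2 ratio of -1.57. Mup1 had 1, 1 and 3 reads in Trem2_KO libraries and 45, 22 and 27 reads in WT libraries. The pseudogene Mup-ps19 had 9, 8 and 13 reads in Trem2_KO libraries and 17, 43 and 17 reads in WT libraries, a log2 ratio of -1.47. For these 3 genes the groups did not overlap and Trem2_KO was lower, while for Mup20 and Mup16 they overlapped. Such non-overlap with Trem2_KO lower was found in 20.7% of all tested genes. Mup1 reached the filter's level of 0.620 CPM in 0 Trem2_KO libraries, and Mup-ps19 and Mup16 in 1 each. They passed through WT, so nothing is read from their lower levels.

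Few reads fell elsewhere in the family. Mup19 had 7, 1 and 5 reads in Trem2_KO libraries and 14, 9 and 11 in WT libraries, while Mup9, Mup13, Mup18, Mup2 and Mup10 had at most 3 reads in a Trem2_KO library and at most 10 in a WT library. Mup4, Mup5, Mup6 and Mup8 had 0 reads in all 6 libraries, although at least 98.7% of the windows of Mup4, Mup5 and Mup6 are unique. Mup4 and Mup5 are known for expression in glands of the mouse head rather than in liver. Of the 27 pseudogenes 19 had 0 reads, and those with a read other than Mup-ps19 had 1 to 12 reads over the 6 libraries.

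The members span 2021 kb of chromosome 4, all on the minus strand. Of 43 genes within 1 Mb outside the first and last member, 17 were tested, 3 were called higher (15.3% over all tested genes) and 2 lower (15.1%), with a median log2 change of -0.01 beside -0.01 over all tested genes. Snx30, which encodes a sorting nexin, was at 0.28 (SE 0.0458, adjusted p = 2.24e-06) and Ugcg, the glucosylceramide synthase, at 0.34 (SE 0.0564, adjusted p = 2.6e-06) on the log2 scale, both higher in Trem2_KO by edgeR. Pole3, a DNA polymerase subunit, was at -0.36 (SE 0.0886, edgeR adjusted p = 0.00132). Fkbp15 at 0.10 and Hsdl2 at -0.22 were the other 2 called, named after their values were seen.

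**Figure D4:**
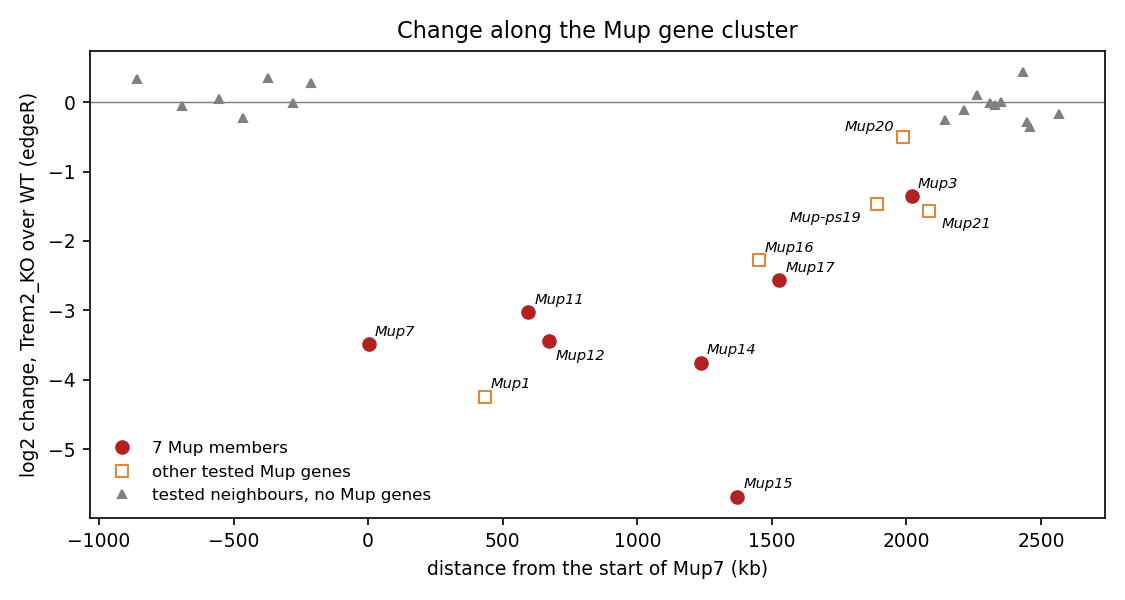
Log2 change of Trem2_KO over WT fitted by edgeR (y axis) against distance from the start of Mup7 in kb (x axis) for the 7 members (filled circles), 5 other tested Mup genes (open squares) and 17 tested flanking genes (triangles). The 7 members lie between -5.69 and -1.35, and the flanking genes between -0.36 and 0.44.

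Whether the Mup reads moved with other hepatocyte transcripts in these sorted cells was described with lists of hepatocyte genes. All 28 genes of a list of secreted hepatocyte proteins were read in these libraries, none of them at 0. Their sum was 1929, 1889 and 1904 CPM in Trem2_KO libraries and 2080, 2196 and 2148 CPM in WT libraries, a log2 ratio of -0.17. Of the 28, 13 were called lower and 2 higher, beside 15.1% and 15.3% over all tested genes, with a median log2 change of -0.14. Those called lower include the antitrypsin copies Serpina1a, Serpina1b, Serpina1c and Serpina1d, which may share reads. All of these but Serpina1a were named after their values were seen. Serpina3k, a protease inhibitor, fell by 0.72 (SE 0.0388, edgeR adjusted p = 5.5e-22), Apoa1, the main protein of high density lipoprotein, by 0.71, the fetuin Ahsg by 0.68 and the antitrypsin gene Serpina1a by 0.60 on the log2 scale. Alb, which encodes albumin, averaged 780 ± 23.3 CPM in Trem2_KO and 806 ± 21.3 CPM in WT (SD, n = 3 each) and was not called (log2 change -0.05, edgeR adjusted p = 0.187).

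Metabolic enzymes of hepatocytes were called higher more often than lower. All 27 listed enzyme genes were read, with a sum of 594, 614 and 597 CPM in Trem2_KO libraries and 524, 507 and 511 CPM in WT libraries. Of the 27, 13 were called higher (15.3% over all tested genes), 4 lower (15.1%) and 10 were not called, with a median log2 change of 0.29. Mat1a, the methionine adenosyltransferase of liver, was higher by 0.99 and Bhmt, a betaine methyltransferase, by 0.66 on the log2 scale, while Cyp1a2, a cytochrome P450, fell by 2.17.

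The Mup reads were also given per read of these lists, as a description, since the members were chosen on this contrast. Per 1000 reads of the secreted list there were 37.7, 43.0 and 33.7 member reads in Trem2_KO libraries and 183, 179 and 182 in WT libraries, a log2 ratio of -2.25 (4.75-fold lower in Trem2_KO). Mup3 alone had 25.1, 25.8 and 26.9 reads per 1000 in Trem2_KO and 62.5, 57.2 and 57.6 in WT, a log2 ratio of -1.19. With the enzyme list as denominator the log2 ratio of the member sum was -2.65, and with Alb alone it was -2.36. Mup20, which is no member, averaged 12.9 ± 2.11 reads per 1000 of the secreted list in Trem2_KO and 16.3 ± 4.31 in WT (SD, n = 3 each), a log2 ratio of -0.34, and the groups overlapped. Sinusoidal endothelial markers, a check on other liver cells, summed to 2056 to 2071 CPM in Trem2_KO libraries and 2089 to 2106 CPM in WT libraries. The log2 ratio of this sum was -0.02, while the median log2 change of the markers was 0.44. Of the 16, 12 were called higher and 2 lower, beside 15.3% and 15.1% over all tested genes, and none was at 0. The part of these cells in the Mup reads was not tested.

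Other genes known for higher expression in male than in female mouse liver were lower in Trem2_KO in most cases. Of 14 listed genes, which hold no Mup gene, 12 were tested, and Cyp4a12b and Ugt2b38 were read too little to be tested. Of the 12, 10 were called lower and 0 higher, beside 15.1% and 15.3% over all tested genes, with a median log2 change of -1.32. The count called higher was also 0 at an unadjusted p under 0.05 and with DESeq2 and limma, since all 12 had a negative edgeR log2 change, between -3.72 and -0.10. The value of -0.10 was that of the complement gene C6, named after its value was seen, which held most of the list's reads. The list was drawn up with the fall of the Mup genes known, so it is not independent evidence of a direction.

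Serpina1e, an antitrypsin copy, had 353, 289 and 342 reads in Trem2_KO libraries and 2526, 2550 and 2701 reads in WT libraries, a log2 change of -3.10 (SE 0.0542, edgeR adjusted p = 1.14e-43). Like the Mup genes, Serpina1e has near-identical copies, among them Serpina1a, so its count and theirs are uncertain. Selenbp2, a selenium-binding protein gene, had 26, 25 and 41 reads in Trem2_KO libraries and 379, 347 and 396 reads in WT libraries, a log2 change of -3.72 (SE 0.142, edgeR adjusted p = 2.02e-28). Slco1a1, an organic anion transporter, had 5, 12 and 15 reads in Trem2_KO libraries and 105, 85 and 79 reads in WT libraries, a log2 change of -3.17. Cyp7b1, an oxysterol hydroxylase, had 16, 14 and 18 reads in Trem2_KO libraries and 84, 94 and 78 reads in WT libraries, a log2 change of -2.52. For none of these 4 genes did the groups overlap, and 20.7% of all tested genes had non-overlapping groups with Trem2_KO lower. Slco1a1, Cyp4a12a and Hsd3b5 reached the filter level in all WT libraries but not in all Trem2_KO libraries, so that they passed through WT and had to differ, and 7 of the other 9 tested genes were called lower.

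Of 18 genes known for higher expression in female mouse liver, 2 were tested, and both were called higher, beside 15.3% over all tested genes. No direction of the list is read from so few genes. Cyp2b9, a cytochrome P450, had 48, 68 and 55 reads in Trem2_KO libraries and 2, 0 and 2 reads in WT libraries. It passed the filter on low counts only through Trem2_KO, where it is high, and so had to differ. Abcd2, a peroxisomal transporter, was higher by 0.18 on the log2 scale, with an edgeR adjusted p = 0.00725 that became 0.0678 without WT replicate 2. Of the 18 genes 7 had no read at all, so most of the list says nothing at this depth.

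Of 17 listed genes of the hormone pathways known to act on liver Mup expression 15 were tested, 4 were called higher and 1 lower (30.4% called over all tested genes), with a median log2 change of 0.06. The growth hormone feedback inhibitors Socs2 and Cish were higher by 0.69 and 0.70, the kinase Jak2 by 0.15 and the repressor Bcl6 by 0.19 on the log2 scale, of which Cish was named after its value was seen. Igf1, a growth hormone target in liver, averaged 371 ± 2.02 CPM in Trem2_KO and 403 ± 8.20 CPM in WT (SD, n = 3 each) and fell by 0.12. Whether the transcripts of this list came from Kupffer cells themselves or from hepatocytes was not tested. The call of Bcl6 was lost with DESeq2 (adjusted p = 0.101), with limma on log2(FPKM + 1) and log2(FPKM + 0.1), at adjusted p = 0.0680 each, and when Trem2_KO replicate 1, Trem2_KO replicate 3 or WT replicate 1 was left out (adjusted p = 0.0675 to 0.0864). That of Jak2 was lost when Trem2_KO replicate 2 was left out (adjusted p = 0.0847). The growth hormone receptor gene Ghr, Stat5b, the glucocorticoid receptor gene Nr3c1 and Zhx2, a repressor known to act on liver genes in mice, had log2 changes of 0.23, -0.01, -0.02 and -0.05 and were not called, and all 4 were named after their values were seen.

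Of 12 listed lipocalins other than the major urinary proteins 7 were tested, 1 was called higher and 1 lower, with a median log2 change of 0.02. The share called was 30.4% over all tested genes. Lcn2, a siderophore-binding lipocalin of neutrophils and stressed tissue, had 49, 27 and 35 reads in Trem2_KO libraries and 17, 3 and 10 reads in WT libraries (log2 change 1.76, SE 0.372, edgeR adjusted p = 0.000201). Without WT replicate 1 its log2 change was 2.37. Rbp4, the plasma carrier of retinol, fell by 0.28 (SE 0.0615, edgeR adjusted p = 0.000235). Orm2 at 0.86 and Apom at -0.49 were not called, although Orm2 was called without WT replicate 3 (adjusted p = 0.0376). Lcn2 and Orm2 reached the filter level in all 3 Trem2_KO libraries, but Lcn2 in 2 WT libraries and Orm2 in 1. Trem2_KO, where they are high, thus helped them pass the filter, and nothing is read from their higher levels.

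**Figure D5:**
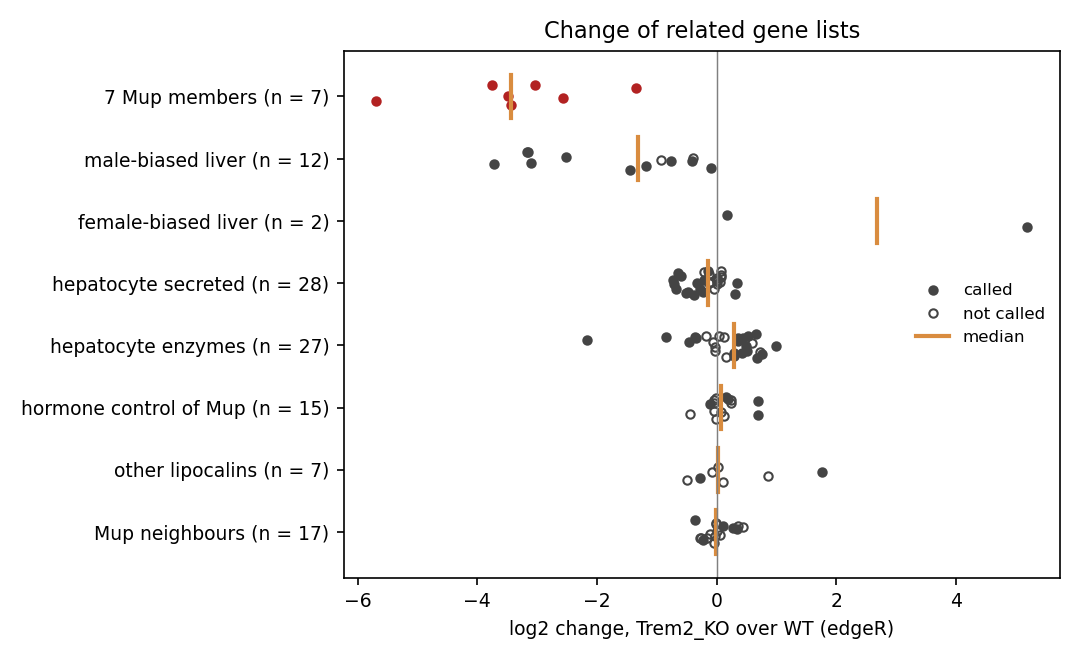
Log2 change of Trem2_KO over WT fitted by edgeR for each tested gene (points, filled where called at an adjusted p under 0.05) and the median (bar) of the 7 Mup members, shown in red with no test, and of 7 gene lists. The male-biased liver list has a median of -1.32, and the medians of the other lists with more than 2 tested genes lie between -0.14 and 0.29.

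Genes whose levels over the 6 libraries were most like the member sum were ranked by Pearson r of log2 CPM among 9817 tested genes with a mean of at least 5 CPM and no Mup name. The first 5 were Trem2, Timp2, a metalloproteinase inhibitor, Hsph1, a heat shock protein, Higd1a, a mitochondrial protein, and Marco, a scavenger receptor of macrophages, with r from 0.999 to 0.998. Since the libraries fall into 2 genotype groups, r mostly reports the difference between them, and 548 of the 9817 genes had an r over 0.95. Over deviations from the group means alone, r was 0.916 for Trem2, 0.830 for Timp2, 0.767 for Hsph1, 0.747 for Higd1a and 0.650 for Marco. These 5 were picked for the highest r over the same libraries, which favours a high r within groups, so nothing is read from these values.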

How the data were processed

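The 6 libraries were grouped by sample title. Per the labels' protocols, an Illumina TruSeq kit was used on total RNA. The authors deposited whole-number read counts per gene with no normalization, and FPKM values, which equal count over gene length and over 1 constant per library at 0.989 to 1.02 times its total. Per the submitters' processing notes, featureCounts 1.5.0-p3, HISAT2 2.0.5 and DESeq2 1.16.1 were used with the builds GRCm38 and mm10. Not given in the sources used here are the read length, the strand setting and the handling of reads that match several genes.

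The quasi-likelihood test of edgeR 4.0.16 (R 4.3.3) was run on the counts with TMM scaling, robust dispersion, genotype as the only term and genes kept by filterByExpr, with Benjamini-Hochberg adjustment over 13776 genes and calls at an adjusted p under 0.05. It was tested on simulated data. Standard errors were derived from the quasi-F statistic. Chi-square per degree of freedom between replicates was 1.94 to 2.80, above sampling noise, so each library was counted as 1 sample. Sequences were compared with Biopython 1.88, counting bases not matched over the longer coding sequence of the most alike transcript pair.

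Members and gene lists were chosen with earlier results of these data known. Named genes are Trem2, the 7 members, other Mup genes with a read, up to 4 genes of each list by smallest p (2 where none was called), Alb, up to 3 called flanking genes and the 5 genes most like the member sum; a gene that this names is not reported here. Alternatives were DESeq2 1.42.0, limma 3.58.1 on log2(FPKM + 1) or log2(FPKM + 0.1), other scalings and filters (at least 1 CPM in at least 3 libraries, or none), a block for replicate number, and each library left out in turn.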

Additional observations from a re-analysis of the deposited data

How the results depend on the processing

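The 7 members were lower in Trem2_KO under every scaling and with any library left out, and all 7 were among the genes called lower in every fit run. In the main fit 15.1% of all tested genes were called lower. The members were chosen from this contrast, and Mup14 and Mup15 passed the filter through WT, so nothing is read from these calls. Leaving out each library in turn moved the log2 ratio of the member sum between -2.50 and -2.34 and that of the sum per hepatocyte secreted reads between -2.34 and -2.17. The member sum ratio was -2.11 over all genes named Mup and -3.49 without Mup3, and with the enzyme list as denominator it was -2.65. Genes called numbered 3377 to 3909 with a library left out, 2813 with DESeq2, and 1979 with limma on log2(FPKM + 1) over 25227 genes without a filter.

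In that unfiltered limma fit, which adjusts over more genes, 1 hepatocyte secreted gene, 1 female-biased gene, 0 hormone pathway genes and 0 other lipocalins were called higher, 1 flanking gene was called lower, and Abcd2, Socs2, Jak2, Bcl6 and Lcn2 lost their calls (adjusted p = 0.061 to 0.125). Without a filter, edgeR called 4 female-biased genes higher. Hormone pathway genes called higher numbered 2 with DESeq2 and with both filtered limma fits. Flanking genes called lower numbered 1 with total counts and with DESeq2. The cause was not tested. With a library left out, calls ranged from 1 to 2 for female-biased genes higher, from 2 to 4 for hormone pathway genes higher, from 1 to 2 for other lipocalins higher and from 1 to 3 for flanking genes lower.

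Deviations from the group means had r = -0.00787, 0.00313 and 0.0361 between same-numbered replicates, and -0.0264 to 0.0234 between differently numbered ones. These values cannot show whether same-numbered replicates shared more than a number. With the replicate number as a block 4230 genes were called. Depth in Trem2_KO, where Mup15 and Mup14 had 3 to 12 reads a library, and the reads that near-identical copies share limit the values of single members.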
